A study of Mus musculus with 2 samples.

Results

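The collagen genes of the mouse brain were followed across both sides of the brain after controlled cortical impact (CCI), in which a piston driven into the exposed cortex gives a focal traumatic injury. Members were all genes whose symbol is Col, a number, the letter a and a number, which gave 44 of the 19070 genes in the files. They comprised 11 fibrillar collagens, 8 basement membrane collagens and 25 other collagens. Spatial expression had been measured with Visium HD on formalin-fixed, paraffin-embedded coronal sections, an assay that hybridises probes for each gene to the tissue and reads them on a barcoded grid, each captured molecule counting once by its unique molecular identifier (UMI). UMIs were given per bin of 16 µm. Both animals were male C57Bl6 mice aged 3 months that had received CCI to the right parietal cortex and no further treatment. They formed 2 groups of 1 section each, taken 3 days (CCI 3 d) and 28 days (CCI 28 d) after injury, and no uninjured section was analysed here.

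Collagens are proteins of the extracellular matrix built as triple helices. Fibrillar collagens assemble into the fibres that give connective tissue its strength, whereas type IV collagen forms the sheet-like network of the basement membrane, the thin layer on which endothelial and epithelial cells rest. In the adult brain fibrillar collagen is found mainly in the meninges, the choroid plexus stroma and the sheaths of larger vessels, and basement membranes line the vessels throughout the parenchyma. The remaining members associate with fibrils, form microfibrils or other networks, or span the cell membrane.

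The injured side was taken as array columns below 130 in the CCI 3 d section and below 240 in the CCI 28 d section. It held 39899 of 121967 bins at 3 d and 50790 of 105589 bins at 28 d, and tissue reached the edge of the array on the injured side at 3 d and on the opposite side at 28 d, so the sides were not mirror images of each other. The sections held 120615873 and 82422389 UMIs, with medians of 836 and 596 UMIs per bin. Collagen genes gave 78002 UMIs at 3 d and 48056 UMIs at 28 d, which was 0.0647% and 0.0583% of all UMIs. Levels are UMIs of a gene or list per 1000000 UMIs of the same region (CPM), and each log2 ratio has a 95% interval that covers counting error only. With 1 section per time there is no spread between animals, no difference could be tested, and the word higher or lower describes these 2 sections. A gene was counted as higher or lower when it differed at least 2-fold and had at least 20 UMIs over the regions compared. Probes differ between genes, so levels are compared between regions and not between genes. In sums over many cells, fewer cells of a type and less RNA per cell cannot be told apart. The labelled tissue, brain, was checked against its markers, of which 6 excitatory neuron markers summed to 2379 CPM and 8 astrocyte markers to 4766 CPM on the opposite side at 3 d.

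The sides differed in more than collagen. Excitatory neuron markers were lower on the injured side (log2 ratio -1.41 at 3 d and -0.24 at 28 d), and 7 choroid plexus markers were higher (2.39 and 0.77). The marker lists of the cells that make most collagen were also higher at 3 d, with log2 ratios of 1.0 for 10 fibroblast markers, 0.83 for 9 mural cell markers and 0.53 for 9 endothelial markers. At 28 d these were 0.71, 0.36 and 0.06, and 9 microglia and macrophage markers stood at 1.13 at 3 d and 2.14 at 28 d. Their part in the results below was not tested.

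Promoter windows of 4 members on which the results turn are shown first, to show how the common type IV pair and the fibrillar genes start. The windows run 5′ to 3′ from 250 bases before to 50 bases after the annotated start (RefSeq, GRCm38.p6). Col4a1 and Col4a2 encode the chains of the common type IV network and, by the starts used for these windows, start 21 bases apart on opposite strands. The gene record of Col4a1 reaches base 11312889, beyond the start used for its window (11312826). Their windows, chr8:11312777-11313076 on the minus strand and chr8:11312555-11312854 on the plus strand, share 78 bases, which stand in capitals in both and are the reverse complement of each other.
Col4a1: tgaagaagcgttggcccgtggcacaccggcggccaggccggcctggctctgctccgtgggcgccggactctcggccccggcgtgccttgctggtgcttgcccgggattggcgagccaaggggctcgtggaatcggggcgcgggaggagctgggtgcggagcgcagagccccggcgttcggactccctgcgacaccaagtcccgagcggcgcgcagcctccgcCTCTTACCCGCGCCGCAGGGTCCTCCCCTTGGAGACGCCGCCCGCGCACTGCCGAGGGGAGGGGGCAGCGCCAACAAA
Col4a2: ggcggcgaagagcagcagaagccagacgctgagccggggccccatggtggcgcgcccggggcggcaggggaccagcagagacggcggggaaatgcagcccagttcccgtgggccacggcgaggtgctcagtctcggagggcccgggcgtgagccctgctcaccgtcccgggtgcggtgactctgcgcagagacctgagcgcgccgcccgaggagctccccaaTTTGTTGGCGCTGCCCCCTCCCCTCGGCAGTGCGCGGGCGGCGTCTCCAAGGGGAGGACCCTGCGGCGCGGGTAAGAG
Col1a2 and Col3a1 encode chains of type I and type III collagen, which share fibres in loose connective tissue. Their windows are chr6:4505368-4505667 and chr1:45311288-45311587, both on the plus strand. In Col1a2 the capitals mark the motif GGGCGG and the motif CCAAT, on either strand, and in Col3a1 the motif TATAAA.
Col1a2: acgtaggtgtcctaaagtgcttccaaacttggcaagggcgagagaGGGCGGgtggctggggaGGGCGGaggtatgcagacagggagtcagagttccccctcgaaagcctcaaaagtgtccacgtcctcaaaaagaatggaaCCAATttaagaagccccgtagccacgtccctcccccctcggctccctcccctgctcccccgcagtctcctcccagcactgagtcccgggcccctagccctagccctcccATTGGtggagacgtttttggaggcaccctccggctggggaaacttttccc
Col3a1: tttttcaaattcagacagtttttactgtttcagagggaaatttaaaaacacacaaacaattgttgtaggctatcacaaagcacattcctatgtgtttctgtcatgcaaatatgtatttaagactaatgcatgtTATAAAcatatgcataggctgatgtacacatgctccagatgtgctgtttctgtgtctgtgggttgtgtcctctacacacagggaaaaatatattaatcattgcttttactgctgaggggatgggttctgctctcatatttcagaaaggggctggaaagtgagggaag
The Col4a1 and Col4a2 windows had 74.0% and 73.7% G or C, and those of Col1a2 and Col3a1 61.0% and 37.7%. On either strand, GGGCGG was present in 22 of the 35 members with a window and in 35.7% of all 32851 windows, CCAAT in 12 and 37.4%, and TATAAA in 5 and 13.6%. The other type IV pair with a listed start on each strand, Col4a6 and Col4a5, starts 1343 bases apart on chromosome X by the starts of their windows. These matches describe the letters of the windows only.

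Of the 3 classes, fibrillar collagens had the largest ratio of summed levels between the injured and the opposite side in both sections. At CCI 3 d the fibrillar sum was 279 CPM on the injured against 133 CPM on the opposite side (log2 ratio 1.07, 95% interval 1.03 to 1.10). At CCI 28 d it was 188 and 108 CPM (0.80, 0.74 to 0.85). Col27a1 gave the most fibrillar UMIs on the injured side at 3 d (21.9%), before Col1a2 (20.5%) and Col1a1 (20.1%). Bins within 50 µm of the tissue border, where fibrillar levels were highest, were unevenly split between the sides. They made up 2.85% of injured-side and 4.11% of opposite-side bins at 3 d, and 5.38% and 1.86% at 28 d. The part of this split in the ratios between the sides, here and for single genes, was not tested. Of all 44 members, 19 were at least 2-fold higher at 3 d, against 10.5% of the 16167 genes compared, and 8 of 43 at 28 d, against 6.4% of genes. The 19 were 7 fibrillar, 5 basement membrane and 7 other collagens. All 44 members passed the minimum at 3 d, and at 28 d Col10a1 missed it with 18 UMIs. Lower by at least 2-fold at 3 d were Col24a1, Col19a1 and Col22a1, where 2.11% of genes were lower, and Col6a4 at 28 d, where 0.569% of genes were lower. The median member stood at a log2 ratio of 0.73 at 3 d and 0.50 at 28 d, beside 0.14 and 0.04 for all genes. By class the median member at 3 d stood higher among basement membrane collagens (1.58) than among fibrillar (1.21) and other collagens (0.43), and at 28 d the medians were 0.53, 0.81 and 0.45.

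Among the fibrillar genes, Col3a1, a collagen of loose connective tissue and healing wounds, had the highest ratio. It measured 44.4 CPM on the injured against 9.41 CPM on the opposite side at 3 d (log2 ratio 2.24, 2.12 to 2.36), and 22.3 and 6.30 CPM at 28 d (1.82, 1.62 to 2.02). Type I collagen is the main component of most fibres. Col1a1 measured 56.1 and 22.9 CPM at 3 d (1.29, 1.20 to 1.38) and 36.0 and 12.2 CPM at 28 d (1.56, 1.42 to 1.71). Col1a2 measured 57.3 and 24.7 CPM at 3 d (1.21, 1.12 to 1.30) and 37.3 and 19.6 CPM at 28 d (0.93, 0.81 to 1.05). Col1a2 at 28 d thus fell short of 2-fold, and without a small flap of tissue described further on the 28 d ratios were 1.26 for Col3a1, 0.94 for Col1a1 and 0.59 for Col1a2.

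The type V collagens, which regulate how type I fibrils begin, did not move as a unit. Col5a3 measured 9.04 and 3.76 CPM at 3 d (1.27) and 6.05 and 3.34 CPM at 28 d (0.86). Col5a2, named after its values were seen because it had under 200 UMIs, measured 2.47 and 1.14 CPM at 3 d (1.11, under 2-fold with TMM scaling). At 28 d it measured 2.66 and 1.19 CPM (1.15, under 2-fold with UMIs per bin or the cut moved towards the injured side). Col5a1 was the exception, with 10.5 CPM on the injured and 14.8 CPM on the opposite side at 3 d (-0.50, -0.67 to -0.34), but 13.8 and 10.6 CPM at 28 d (0.39, 0.21 to 0.57).

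The remaining fibrillar genes are better known from cartilage and bone. Col27a1 measured 61.2 and 20.1 CPM at 3 d (1.61, 1.52 to 1.70) and 22.9 and 17.1 CPM at 28 d (0.42, 0.28 to 0.56). Col2a1, the main cartilage collagen, measured 5.29 and 1.72 CPM at 3 d (1.62) and 2.90 and 1.66 CPM at 28 d (0.81). Col24a1 had the lowest ratio of the class at 3 d, with 1.91 and 6.90 CPM (-1.84, -2.22 to -1.49), and was close to even at 28 d with 4.54 and 4.73 CPM (-0.06, -0.36 to 0.24). The type XI genes differed little between sides. Col11a1 was at 12.5 and 11.4 CPM at 3 d (0.14, below 0 with TMM scaling) and 12.4 and 10.6 CPM at 28 d (0.23), and Col11a2 was at 18.4 and 16.4 CPM (0.17) and 27.3 and 21.1 CPM (0.37).

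Basement membrane collagens were higher on the injured side by a smaller factor. The class sum was 252 and 181 CPM at 3 d (log2 ratio 0.48, 0.44 to 0.52) and 192 and 146 CPM at 28 d (0.40, 0.35 to 0.44). Col4a1 gave 63.6% of the UMIs of this class on the injured side at 3 d, so the sum mostly follows Col4a1. It measured 161 and 120 CPM at 3 d (0.42, 0.38 to 0.47) and 114 and 90.2 CPM at 28 d (0.34, 0.28 to 0.40). Its partner Col4a2 measured 49.1 and 44.6 CPM at 3 d (0.14, 0.06 to 0.22, below 0 with TMM scaling) and 40.4 and 35.7 CPM at 28 d (0.18, 0.07 to 0.28).

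The type IV chains of more restricted expression had larger ratios than the common pair. Col4a5 measured 15.4 and 5.82 CPM at 3 d (1.40, 1.23 to 1.58) and 14.9 and 6.55 CPM at 28 d (1.18, 0.98 to 1.39). Col4a6 measured 5.32 and 1.54 CPM at 3 d (1.78, 1.46 to 2.12) and 5.13 and 1.44 CPM at 28 d (1.83, 1.42 to 2.27). Col4a3 and Col4a4, named after their values were seen because they had 101 and 102 UMIs at 3 d, had log2 ratios of 1.86 and 1.89 at 3 d and of 0.56 and 0.50 at 28 d, where both intervals include 0. Bins rich in choroid plexus markers held 69.3% and 59.8% of their UMIs at 3 d, and without those bins the 3 d ratios were -0.27, on 8 and 23 UMIs, and 0.995, on 19 and 22 UMIs. Col18a1, whose protein carries the endostatin fragment, measured 8.64 and 2.57 CPM at 3 d (1.75, 1.50 to 2.01) and 6.34 and 3.18 CPM at 28 d (0.99, 0.69 to 1.30). Col15a1, its relative in vessel walls, measured 10.2 and 5.93 CPM at 3 d (0.78) and 8.87 and 7.36 CPM at 28 d (0.27).

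**Figure D1:**
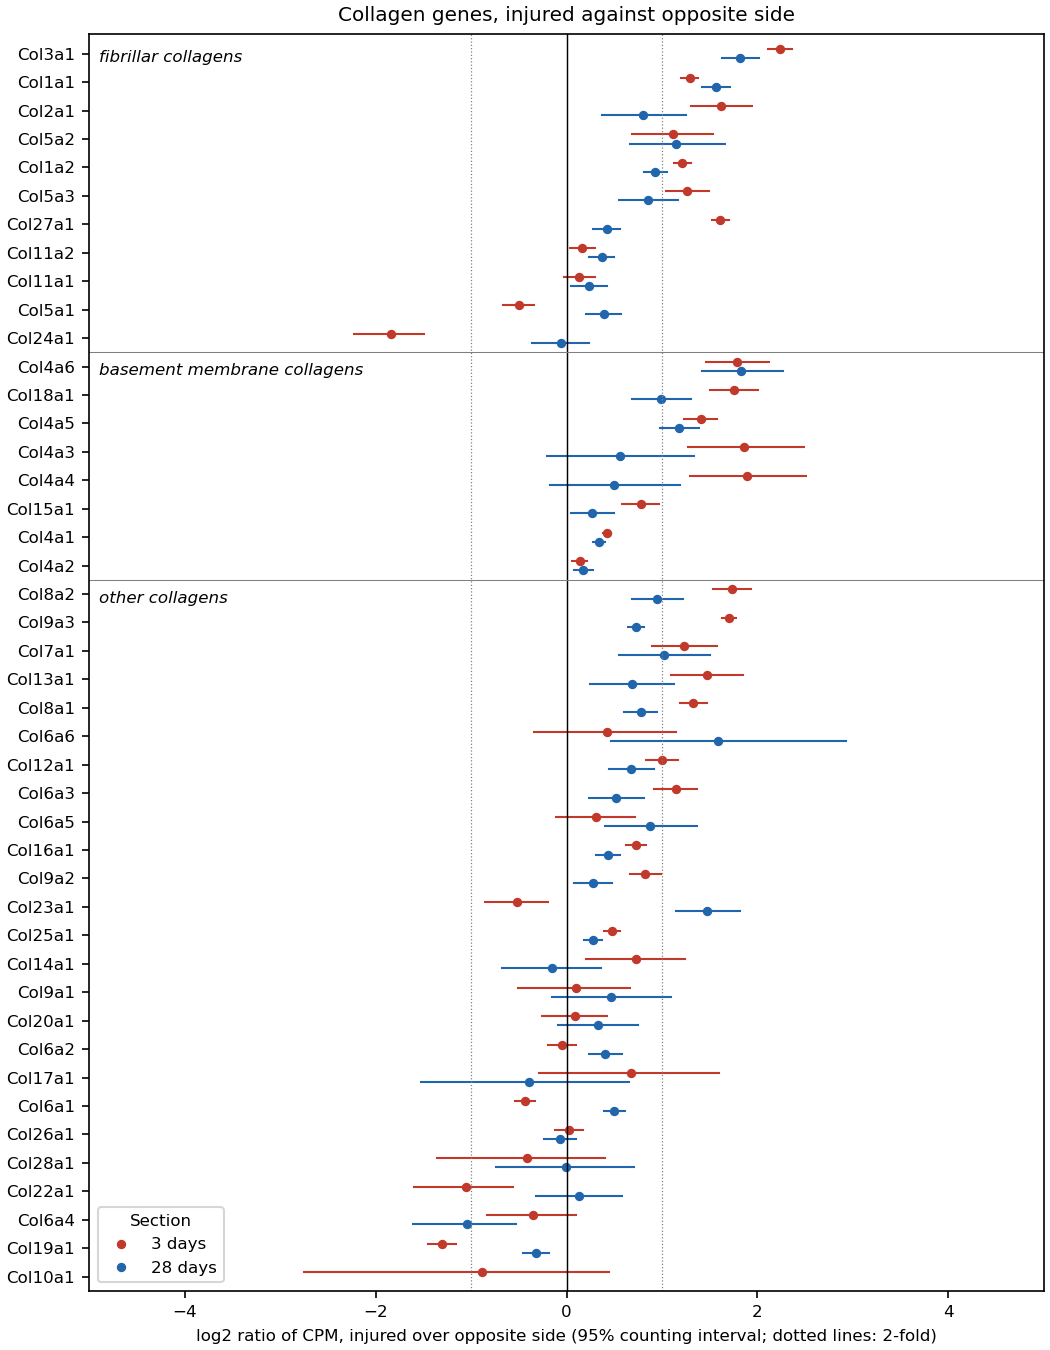
Log2 ratio of CPM on the injured side over the opposite side for each collagen gene in the CCI 3 d and CCI 28 d sections, with bars for 95% intervals of counting error and genes grouped by class. Col3a1 stands highest at 3 d (2.24) and Col24a1 lowest (-1.84). Col9a1, Col20a1 and Col26a1 change sign at 3 d with UMIs per bin or TMM, Col11a1 and Col4a2 with TMM, and Col22a1 at 28 d with UMIs per bin.

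The other collagens were mixed in direction. Their sum was 340 and 230 CPM at 3 d (log2 ratio 0.56, 0.53 to 0.60) and 316 and 236 CPM at 28 d (0.42, 0.39 to 0.46), with single genes from -1.31 to 1.73 at 3 d. In the type VI group, which forms beaded microfibrils, Col6a3 was higher at 3 d with 8.91 and 4.04 CPM (1.14, under 2-fold with TMM scaling) and stood at 0.52 at 28 d. Col6a1 was lower on the injured side at 3 d with 24.8 and 33.5 CPM (-0.44, -0.54 to -0.33) and higher at 28 d with 37.3 and 26.3 CPM (0.50, 0.39 to 0.61). Col6a2 took the values -0.05 and 0.41, and Col6a4, at 42 and 106 UMIs, -1.04 at 28 d. Thus the type VI chains, which are assembled together, did not share a direction at 3 d.

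The fibril-associated collagens ran from Col19a1, the lowest of the other collagens at 3 d, to Col9a3. Col9a3, a chain of cartilage type IX collagen, measured 92.2 and 28.3 CPM at 3 d (1.70, 1.63 to 1.78) and 72.4 and 43.8 CPM at 28 d (0.72, 0.64 to 0.81). Without plexus bins the 3 d ratio was 0.75. Col12a1, which coats type I fibrils, measured 14.3 and 7.13 CPM at 3 d (1.0) and stood at 0.68 at 28 d. It lay so near the threshold that it missed 2-fold at 3 d with TMM scaling, UMIs per bin, a minimum of 100 UMIs per bin, either shift of the cut or plexus bins left out. Col16a1 was at 32.9 and 19.8 CPM (0.73) and 30.3 and 22.4 CPM (0.44). Col19a1, a gene expressed by neurons in the brain, was lower on the injured side at 3 d with 12.0 and 29.6 CPM (-1.31, -1.46 to -1.16) and at 28 d with 20.5 and 25.6 CPM (-0.32, -0.45 to -0.19). Col22a1 was at 1.04 and 2.17 CPM at 3 d (-1.05) and 2.20 and 2.01 CPM at 28 d (0.13, below 0 with UMIs per bin).

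The network-forming genes Col8a1 and Col8a2, known from the basement layer of the cornea, measured 23.4 and 9.31 CPM (1.33) and 13.5 and 4.05 CPM (1.73) at 3 d, and stood at 0.77 and 0.95 at 28 d. Without plexus bins their 3 d ratios were 0.21 and 0.51. Col7a1, the anchoring fibril collagen of skin, measured 4.01 and 1.71 CPM at 3 d (1.23) and 2.74 and 1.35 CPM at 28 d (1.02). At 28 d it was under 2-fold with TMM scaling, UMIs per bin, either shift of the cut, or the midline strip or the flap left out. Of the transmembrane collagens, Col13a1 was higher at 3 d with 3.54 and 1.28 CPM (1.47), and Col23a1 went from 2.69 and 3.86 CPM at 3 d (-0.52, -0.86 to -0.19) to 6.77 and 2.43 CPM at 28 d (1.47, 1.15 to 1.81). Col25a1, a neuronal collagen whose shed fragment was found in amyloid plaques, was at 52.3 and 37.5 CPM (0.48) and 47.0 and 38.8 CPM (0.28). Col6a6, the 8th gene higher at 28 d, rested on 23 and 9 UMIs. The members not yet named, Col6a5, Col9a1, Col9a2, Col10a1, Col14a1, Col17a1, Col20a1, Col26a1 and Col28a1, had log2 ratios between -0.89 and 0.88.

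Fibrillar RNA was densest along the tissue border. Border bins were those within 50 µm of the off-tissue area around the section, whatever tissue lay there. At 28 d they held 17.4% of Col9a3 and 30.5% of Col8a2 UMIs, against 0.688% and 11.6% at 3 d. Both genes were concentrated in the choroid plexus bins described further on. Border levels at 28 d, above all on the injured side, may thus hold plexus RNA as well, which was not tested. At the opposite-side border at 28 d, Col9a3 was at least 2-fold lower than inside and Col8a2 at least 2-fold higher. On the opposite side at 3 d the fibrillar sum was 1847 CPM at the border and 98.4 CPM inside (log2 ratio 4.23, 4.17 to 4.29), and at 28 d 1729 and 98.7 CPM (4.13, 3.99 to 4.27). Fibroblast markers ran the same way, with log2 ratios of 5.15 and 5.78. Of the members, 26 of 44 were at least 2-fold higher at the border at 3 d, against 20.7% of all genes compared, and 28 of 42 at 28 d, against 25.5%. Border bins held fewer UMIs, and with UMIs per bin in place of CPM every border ratio here drops by 1.07 at 3 d and by 1.66 at 28 d.

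Type I and III collagen carried the border pattern. Col1a1 was at 705 CPM at the border and 9.02 CPM inside at 3 d (6.29, 6.15 to 6.42), and at 517 and 9.14 CPM at 28 d (5.83, 5.53 to 6.10). Col1a2 was at 702 and 10.9 CPM (6.01) and 787 and 14.97 CPM (5.72), and Col3a1 at 265 and 4.20 CPM (5.98) and 270 and 4.72 CPM (5.84). Of all UMIs of a section, 1.76% at 3 d and 2.20% at 28 d lay in border bins, whereas for the fibrillar class these shares were 23.0% and 21.8%, for Col1a1 45.5% and 47.2%, and for Col3a1 40.8% and 42.3%. Most fibrillar UMIs thus lay inside, and Col27a1 (1.74% and 6.40%), Col11a1 (2.90% and 0.849%), Col24a1 (1.40% and 0.261%) and Col2a1 (1.46% and 3.83%) had few of theirs at the border.

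Members of other classes were high at the border too. At 3 d the log2 ratios were 4.34 for Col6a2, 2.79 for Col6a1, 3.60 for Col12a1, 4.35 for Col13a1, 3.44 for Col4a5 and 3.73 for Col4a6, and at 28 d they were 4.51, 2.85, 4.25, 4.50, 3.83 and 4.97. All of these stayed above 0 with UMIs per bin. Col9a2 was also high at the border (3.15 and 4.65), while Col9a3 was at 20.5 and 28.5 CPM at 3 d (-0.45, -1.01 to 0.01). Lower by at least 2-fold at the border at 3 d were Col6a5 and Col6a4, against 12.4% of genes, and at 28 d Col11a1, Col24a1, Col4a2 and Col9a3, against 17.8% of genes and each on at most 4 border UMIs.

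The common type IV pair was spread through the tissue. Col4a1 was at 253 CPM at the border and 117 CPM inside at 3 d (1.11, 0.97 to 1.25), and at 137 and 89.9 CPM at 28 d (0.62, 0.10 to 1.07), a direction that turned with UMIs per bin at 28 d. Only 3.89% and 7.04% of Col4a1 UMIs lay at the border. For the basement membrane class the log2 ratio was 1.18 at 3 d (0.11 with UMIs per bin) and 1.16 at 28 d (-0.50 with UMIs per bin).

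With distance from the border the classes separated. On the opposite side at 3 d the fibrillar level was 1847 CPM within 50 µm, 389 CPM at 50 to 100 µm, 81.0 CPM at 100 to 200 µm and between 64.8 and 114 CPM farther in. Basement membrane collagens on that side were at 401, 248 and 192 CPM over the same 3 bands. On the injured side at 3 d the fibrillar level was 4042, 2227 and 418 CPM over these bands, above the opposite side in each. Farther in it stayed above, at 119, 180 and 197 CPM at 200 to 400, 400 to 800 and over 800 µm. The opposite side held 64.8, 77.3 and 114 CPM at these distances. Basement membrane collagens on the injured side were at 611, 808 and 464 CPM over the first 3 bands, highest in the 50 to 100 µm band. Endothelial markers peaked in the same band there, at 690, 1071 and 624 CPM against 776, 698 and 259 CPM on the opposite side. Fibroblast markers were at 4514, 4520 and 676 CPM against 4248, 1006 and 72.6 CPM, and the part of either in the collagen levels was not tested. At 28 d the order of the sides was the other way round in the first and second band, with fibrillar levels of 1372, 537 and 119 CPM on the injured against 1729, 747 and 100.2 CPM on the opposite side over the 3 bands. With UMIs per bin the injured side was the higher in the first band at 28 d and the lower in the third.

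**Figure D2:**
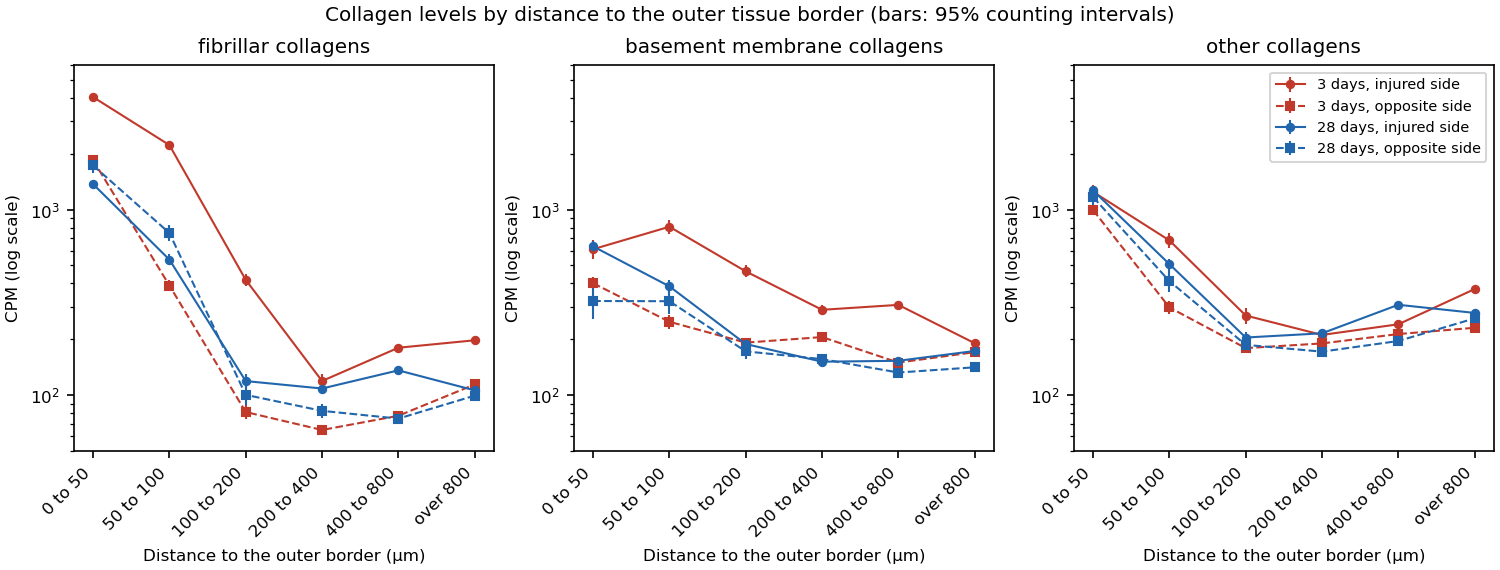
Fibrillar, basement membrane and other collagen levels (CPM, log axis) against distance from the tissue border in µm, for the injured and opposite side of each section, with bars for 95% intervals of counting error. Fibrillar collagens drop from 1847 to 81.0 CPM within 200 µm on the opposite side at 3 d, and basement membrane collagens from 401 to 192 CPM. With UMIs per bin the basement membrane ratio of border to inside turns below 0 at 28 d (-0.50).

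Border bins that hold enough RNA were also compared bin by bin. After thinning each bin to 300 UMIs, a UMI of Col1a1, Col1a2 or Col3a1 was found in 56.4% of 461 border bins on the injured side at 3 d, in 36.5% of 1951 border bins on the opposite side and in 0.944% of 69632 inside bins there. Unthinned these shares were 37.1%, 37.3% and 1.84%, and 675, 1426 and 9059 bins under 300 UMIs were left out by thinning. At 28 d the thinned shares were 25.3% of 1385 injured-side border bins, 35.1% of 299 opposite-side border bins and 0.995% of 44007 inside bins. Unthinned they were 25.01%, 23.3% and 1.88%, and thinning left out 1346, 722 and 9771 bins, so that most opposite-side border bins did not enter. The order of the 2 borders thus depended on thinning at both times.

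The lesion zone was then taken apart from the border. It was placed by 6 phagocyte genes (Cd68, Lyz2, Ctsz, Lgals3, Cd52 and Laptm5), none a collagen, and covered 8755 bins at 3 d and 13842 at 28 d, or 21.9% and 27.3% of the injured side. In zone bins away from the border the fibrillar sum at 3 d was 431 CPM, against 98.4 CPM inside the opposite side (log2 ratio 2.13, 2.06 to 2.20), and at 28 d 237 against 98.7 CPM (1.26, 1.18 to 1.35). Of the members, 23 of 44 were at least 2-fold higher in the zone at 3 d, against 22.4% of genes, and 12 of 42 at 28 d, against 14.9%. At least 2-fold lower were 6 of 44 at 3 d, against 11.4% of genes, and 6 of 42 at 28 d, against 10.5%, of which Col19a1, Col26a1 and Col6a4 were lower at both times. Zone bins held fewer UMIs, and with UMIs per bin every ratio of this comparison drops by 0.83 at 3 d and by 0.73 at 28 d.

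Among all members Col3a1 had the largest ratio in the zone at 3 d, and at 28 d it came after Col4a6 (2.94). It was at 109 CPM in the zone and 4.20 CPM inside the opposite side at 3 d (4.70), and at 32.6 and 4.72 CPM at 28 d (2.79). Col1a1 was at 91.0 and 9.02 CPM (3.34) and 27.4 and 9.14 CPM (1.59), Col1a2 at 67.4 and 10.9 CPM (2.63) and 26.8 and 14.97 CPM (0.84). Col5a3 was at 33.6 and 3.76 CPM (3.16) and 11.5 and 3.31 CPM (1.80). All 4 stayed above 0 with UMIs per bin at both times. Col27a1 was at 53.1 and 19.99 CPM (1.41) and 41.6 and 17.1 CPM (1.28).

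Basement membrane collagens were raised in the zone at 3 d, at 507 CPM against 177 CPM (1.52, 1.46 to 1.58), and close to the opposite side at 28 d, at 188 against 145 CPM (0.38, 0.29 to 0.46), where UMIs per bin gave -0.36. Col4a1 was at 381 and 117 CPM at 3 d (1.70, 1.63 to 1.77) and 110 and 89.9 CPM at 28 d (0.30, below 0 with UMIs per bin). Col4a2 took 62.4 and 44.3 CPM at 3 d (0.50, below 0 with UMIs per bin) and a ratio of -0.39 at 28 d. Col4a5 stood at 2.57 and 1.93, Col4a6 at 3.46 and 2.94 and Col18a1 at 2.43 and 0.49, the last below 0 with UMIs per bin at 28 d. Col4a1 and Col18a1 were thus nearer to the opposite side at 28 d than at 3 d and Col4a2 went from above to below it, while Col4a5 and Col4a6 were at least 2-fold higher at both times.

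Several microfibril and fibril-associated genes were at least 2-fold higher in the zone at 3 d and not at 28 d, a difference that was not tested. Col6a3 stood at 2.84 and 0.55, Col12a1 at 2.59 and 0.46, Col16a1 at 2.00 and 0.41, and Col6a1 at 1.15 and -0.11, and the 28 d values of Col6a3, Col12a1 and Col16a1 turn below 0 with UMIs per bin. The sum of the other collagens stood at 0.71 at 3 d and -0.11 at 28 d, and at -0.12 and -0.84 with UMIs per bin. Col11a2 took the other course, at -0.11 at 3 d and at 58.3 against 21.1 CPM at 28 d (1.47, 1.29 to 1.64). Col19a1 (-1.98 and -1.61) and Col25a1 (-1.58 and -0.95) stood below the opposite side in the zone at both times, as did excitatory neuron markers (-1.77 and -1.59). Over the whole sides at 3 d, which were not mirror images, Col25a1 stood at 0.48. Excitatory neuron markers there were at 893 and 2379 CPM on the injured and opposite side, and inhibitory neuron markers at 1025 and 815 CPM. The part of neurons in the Col25a1 values was not tested. In the zone against the inside of the opposite side, fibroblast markers stood at 1.36 and 0.30, mural cell markers at 1.74 and 0.54, and endothelial markers at 1.26 and 0.60. Microglia and macrophage markers stood at 2.55 and 4.14, but phagocyte genes placed the zone, so high values of these markers follow from that choice. The part of these cells in the collagen ratios was not tested.

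Outside the zone the injured side was nearer to the opposite side. Its inside bins had a fibrillar log2 ratio of 1.04 at 3 d and 0.22 at 28 d, and a basement membrane ratio of 0.24 and 0.23. At 3 d this fibrillar ratio was about 2-fold, close to that of the whole sides (1.07). Where the zone met the border, at 3 d, the fibrillar sum was 6311 CPM against 1847 CPM at the opposite border (1.77, 1.65 to 1.89), while fibroblast markers were lower there (-0.55). Col3a1 was at 2319 and 265 CPM (3.13), Col1a1 at 2144 and 705 CPM (1.61) and Col4a1 at 1151 and 253 CPM (2.19), all above 0 with UMIs per bin too. After thinning, 67.6% of 105 zone border bins held a UMI of Col1a1, Col1a2 or Col3a1, with 273 bins left out, whereas unthinned the share was 28.3% of 378 bins, below the 37.3% of the opposite border. A UMI of Col4a1 or Col4a2 was found in 30.5% of them thinned and 20.6% unthinned.

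**Figure D3:**
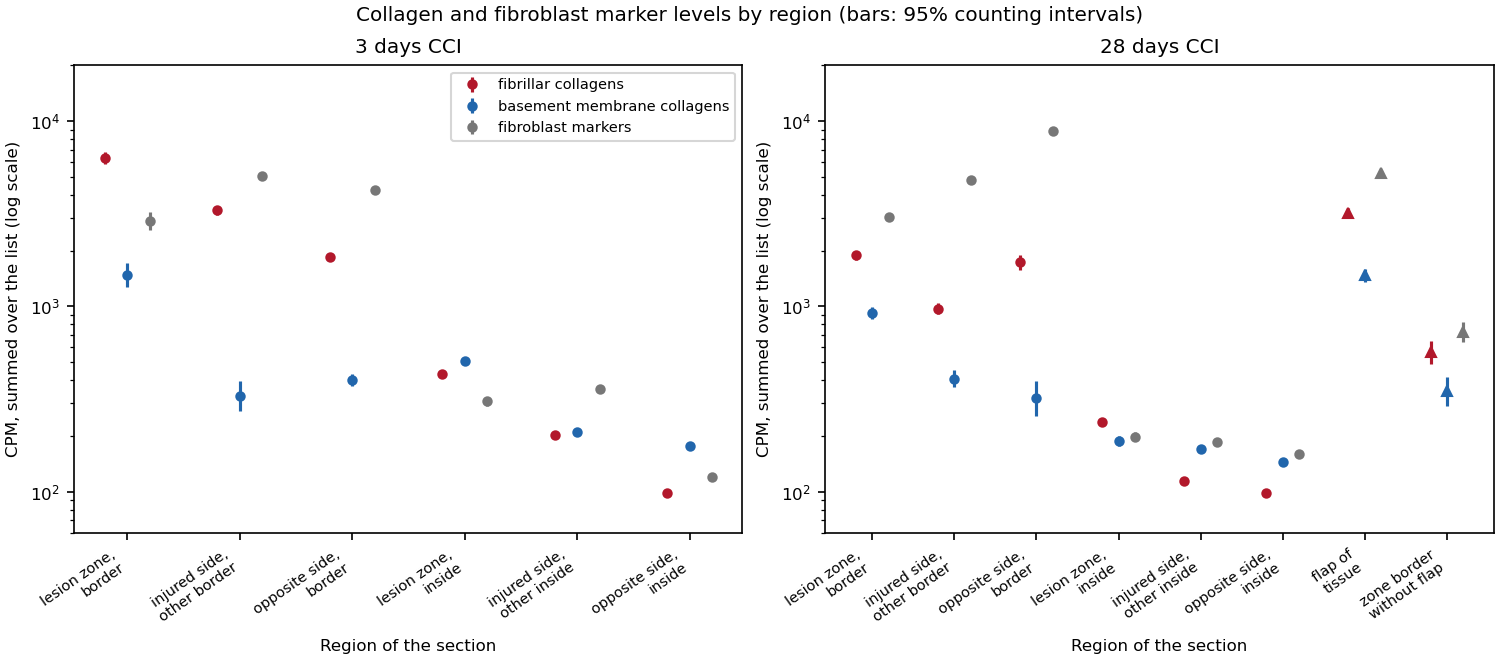
Summed levels (CPM, log axis) of fibrillar collagens, basement membrane collagens and fibroblast markers in the border and inside bins of the lesion zone, the rest of the injured side and the opposite side of each section, with triangles for the 28 d flap and the zone border without it and bars for 95% intervals of counting error. At the 3 d zone border the fibrillar sum (6311 CPM) stands above that of the opposite border (1847 CPM), where fibroblast markers stand the other way round (log2 ratio -0.55). Inside the 28 d zone the basement membrane sum is 188 CPM against 145 CPM, an order that turns with UMIs per bin (-0.36).

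At 28 d a small flap of tissue at the injured edge held a large share of the Col1a1, Col1a2 and Col3a1 RNA. The flap was a box of bins drawn after the maps were seen, so its levels, and those without it, are a description. It had 336 bins, 0.318% of the section, and 19.96% of the Col1a1, Col1a2 and Col3a1 UMIs. Its fibrillar level was 3191 CPM, against 1729 CPM at the opposite border (log2 ratio 0.88, 0.73 to 1.04), and its basement membrane level 1469 against 321 CPM (2.19, 1.86 to 2.54). Fibroblast markers were lower in the flap than at that border, at 5212 and 8822 CPM, whereas microglia and macrophage markers were at 2976 and 901 CPM and ependymal markers at 1828 and 51.7 CPM. Flap bins held more UMIs, and with UMIs per bin every ratio of flap to opposite border is higher by 2.02, which turns the fibroblast ratio above 0.

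Within the flap the genes differed. Col1a1 was at 1314 and 517 CPM (1.34) and Col3a1 at 754 and 270 CPM (1.48), but Col1a2 was near even by CPM (0.09, and 2.12 with UMIs per bin). Col4a1 was at 900 and 137 CPM (2.70) and Col4a2 at 155 and 11.1 CPM (3.59), the latter against 3 UMIs at the opposite border. The zone border as a whole stood at 1887 CPM for fibrillar collagens at 28 d (0.12, but 1.60 with UMIs per bin), and without the flap at 565 CPM (-1.61, -1.86 to -1.37, and -0.50 with UMIs per bin). Without the flap the injured side stood at a log2 ratio of 0.55 for fibrillar and 0.30 for basement membrane collagens, and 5 members in place of 8 were at least 2-fold higher, against 5.79% of genes, Col1a1 (0.94), Col4a5 (0.98) and Col7a1 (0.77) being the 3 lost.

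**Figure D4:**
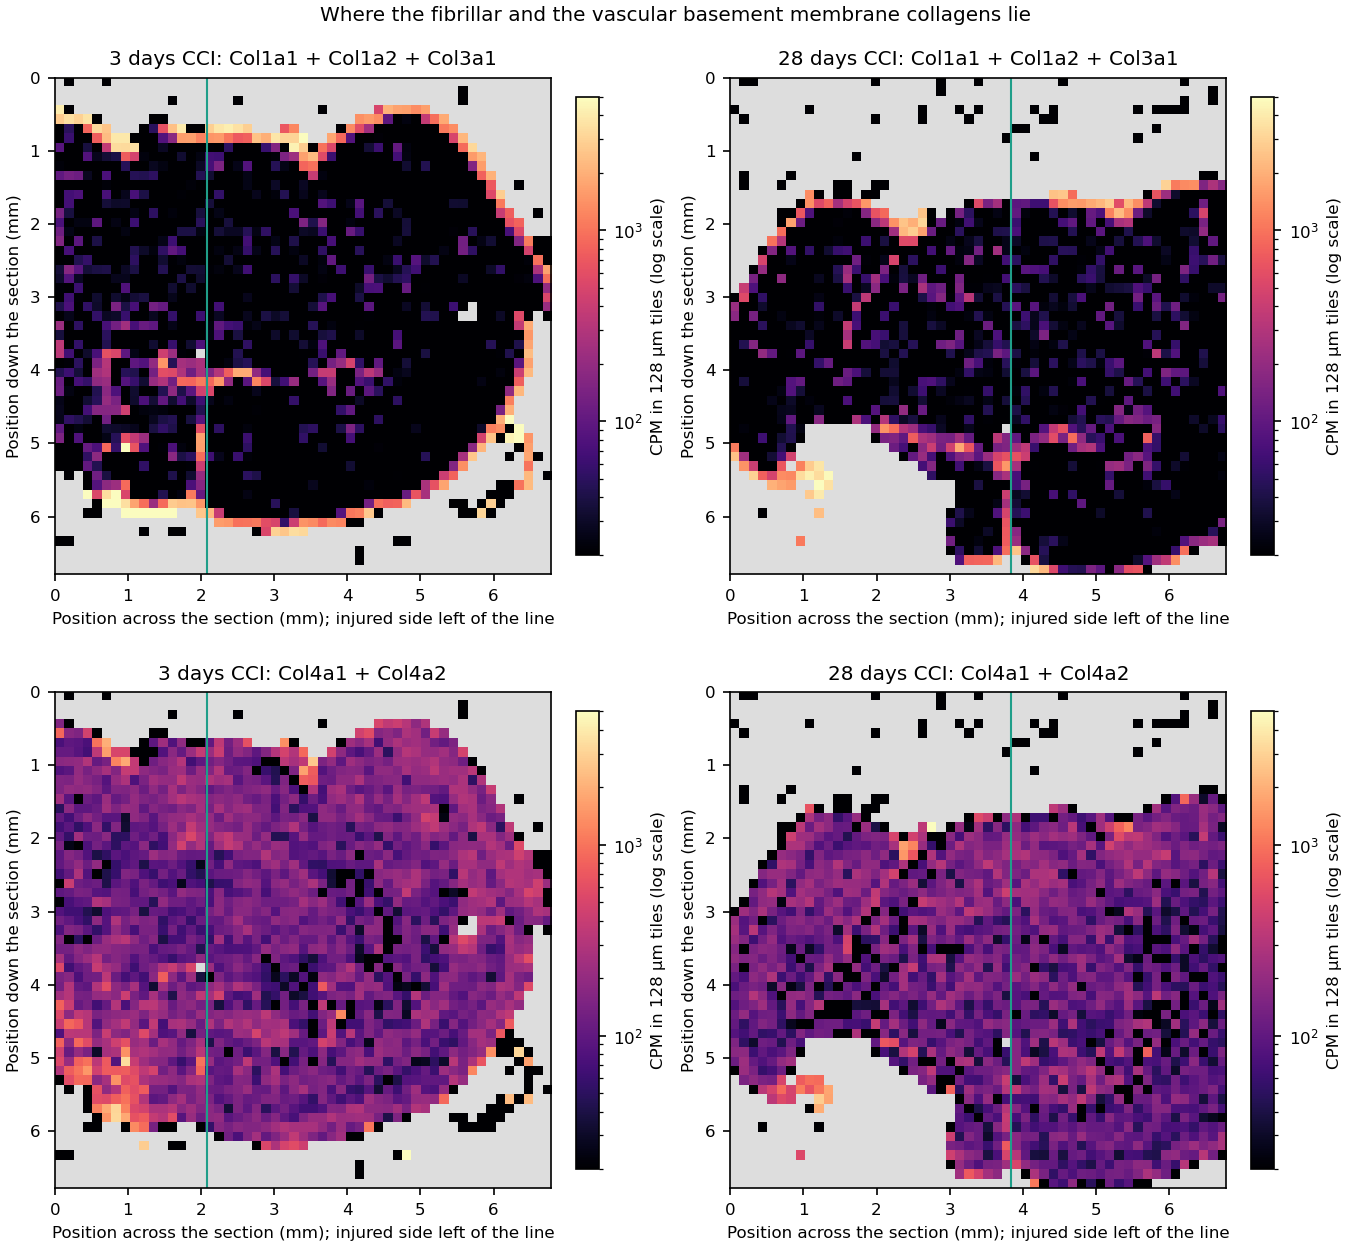
Maps of the summed level of Col1a1, Col1a2 and Col3a1 and of Col4a1 and Col4a2 (CPM in tiles of 128 µm, log colour scale) over each section, with axes in mm and the injured side left of the line. Col1a1, Col1a2 and Col3a1 trace the tissue border and, at 28 d, the flap that holds 19.96% of their UMIs, whereas Col4a1 and Col4a2 cover the section.

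Some members were concentrated in the choroid plexus, the vascular fold in the ventricles that makes cerebrospinal fluid. Bins rich in plexus markers numbered 1133 on the injured and 525 on the opposite side at 3 d, and 955 and 743 at 28 d. Against the rest of the opposite side, Col9a3 was at 1591 and 16.4 CPM at 3 d (6.60) and 1516 and 19.2 CPM at 28 d (6.30). Col8a1 was at 435 and 6.07 CPM (6.16) and 408 and 4.05 CPM (6.65), and Col8a2 stood at 6.50 and 6.34. Plexus bins held 59.8% and 58.6% of Col9a3 UMIs, 54.5% and 63.8% of Col8a1 UMIs, and 2.00% and 2.17% of all UMIs.

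Type IV chains outside the common pair followed the plexus too. Col4a4 stood at 6.59 and 6.06, Col4a3 at 6.44 and 5.90, Col4a5 at 3.77 and 3.91, Col4a6 at 3.82 and 3.15 and Col18a1 at 3.95 and 3.13. Col4a1 was nearly even (0.17 and 0.36) and Col4a2 lower (-1.06 and -0.53). With plexus bins left out of both sides, 13 members were at least 2-fold higher on the injured side at 3 d in place of 19, against 8.89% of genes, and Col12a1, Col4a3, Col4a4, Col8a1, Col8a2 and Col9a3 were the 6 lost, of which Col12a1 had 3.81% of its UMIs in plexus bins. The other collagens then stood at 0.23 at 3 d and 0.36 at 28 d, while fibrillar collagens stood at 1.05 and 0.79.

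Col27a1 was also compared in bins with a high summed level of Prox1, Dsp and C1ql2, genes known as markers of dentate granule cells in the hippocampus. These bins were chosen after the Col27a1 map was seen, so its level in them is a description, and they numbered 600 on the injured and 787 on the opposite side at 3 d, and 415 and 538 at 28 d. At 3 d Col27a1 was at 188 CPM in them and 17.5 CPM in the other inside bins of the opposite side (log2 ratio 3.42, 3.21 to 3.63), and at 463 and 52.6 CPM on the injured side (3.14, 2.97 to 3.30). At 28 d it was at 9.21 and 17.2 CPM on the opposite side (-0.80, -2.22 to 0.15) and at 74.4 and 20.5 CPM on the injured side (1.88, 1.32 to 2.36).

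Within these bins Col27a1 was higher on the injured side at both times, with a log2 ratio of 1.30 (1.06 to 1.55) at 3 d and 2.94 (1.82 to 4.43) at 28 d, the latter from 34 against 7 UMIs. Dsp had 0 UMIs on the injured and 103 on the opposite side at 3 d, at least 22.6-fold lower against a floor of 3 counts over the bins, and stood at -0.08 at 28 d. The bins were chosen by 1 threshold on the sum of Prox1, Dsp and C1ql2, so the make-up of that sum was free to differ between the sides. By the Dsp counts it did differ at 3 d, so the bins of the sides were not alike. The part of this in the Col27a1 ratios was not tested.

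**Figure D5:**
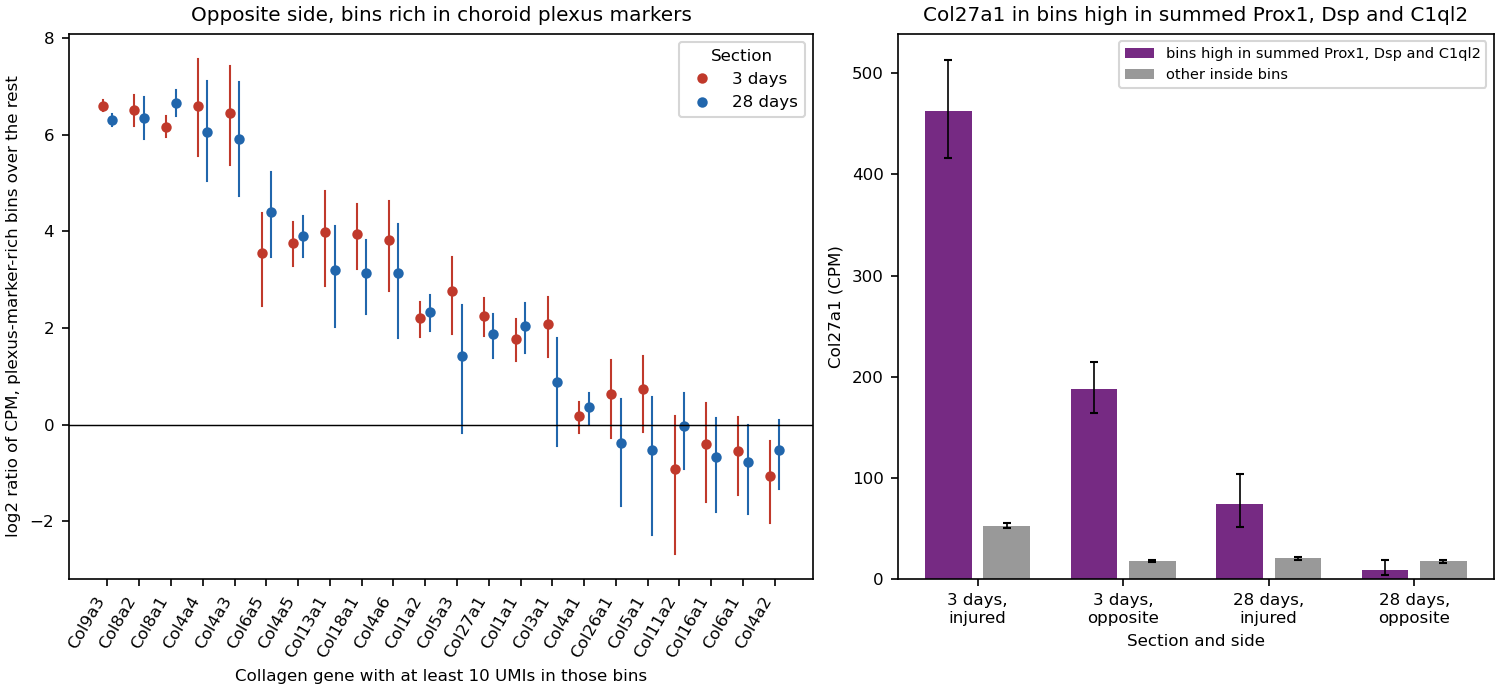
Left, log2 ratio of CPM in bins rich in choroid plexus markers over the rest of the opposite side for collagen genes with at least 10 UMIs in those bins. Right, Col27a1 level (CPM) in bins with a high summed level of Prox1, Dsp and C1ql2 and in the other inside bins by section and side, with bars for 95% intervals of counting error in both. Col9a3 stands at 6.60 and 6.30, and Col27a1 goes from 463 CPM on the 3 d injured side to 9.21 CPM on the 28 d opposite side.

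Between the sections, fibrillar collagens on the injured side were lower at 28 d than at 3 d (188 and 279 CPM, log2 ratio -0.57, -0.61 to -0.52), and basement membrane collagens likewise (192 and 252 CPM, -0.40, -0.44 to -0.35). The opposite side differed in the same direction, by -0.30 and -0.31. Of 43 members compared on the injured side, 3 were at least 2-fold higher at 28 d, against 2.16% of genes, and 1 was at least 2-fold lower, against 2.8%. The 3 were Col23a1 (1.33, 1.0 to 1.68), Col24a1 (1.24, 0.84 to 1.67) and Col22a1 (1.08, 0.52 to 1.68), which stood at -0.66, -0.54 and -0.10 on the opposite side. The 1 was Col27a1 (-1.42, -1.53 to -1.30), at 61.2 CPM at 3 d and 22.9 CPM at 28 d. It gave 21.9% of the fibrillar UMIs on the injured side at 3 d, so the class sum follows it in part. Col3a1 lay just short of 2-fold lower at -0.996, and Col1a1 stood at -0.64 and Col4a1 at -0.49. On the opposite side these 4 genes stood at -0.23 for Col27a1, -0.58 for Col3a1, -0.91 for Col1a1 and -0.41 for Col4a1. Between the sections, endothelial markers on the injured side stood at -0.43, mural cell markers at -0.29, fibroblast markers at -0.22 and choroid plexus markers at -0.50, and on the opposite side at 0.04, 0.17, 0.07 and 1.12. Excitatory neuron markers stood at 0.89 on the injured and -0.28 on the opposite side, and microglia and macrophage markers at 0.80 and -0.22. The part of these cells in the collagen values was not tested. Time, animal, section level and slide cannot be told apart in these values.

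Genes that build, cut and bind collagen were compared between the sides as well. Of 20 genes of collagen folding and hydroxylation, 3 were at least 2-fold higher on the injured side at 3 d and 1 at 28 d, near the shares over all genes (10.5% and 6.4%), with medians of 0.45 and 0.25. The chaperone gene Serpinh1 was at 58.3 and 24.7 CPM at 3 d (1.24), the hydroxylase subunit P4ha3 at 28.0 and 11.0 CPM (1.35) and Crtap at 27.9 and 13.8 CPM (1.01). P4ha3 was also the gene higher at 28 d (1.52). None of the 4 lists held a gene at least 2-fold lower.

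Of 13 genes of procollagen cleavage and crosslinking, 6 were higher at 3 d and 2 at 28 d, beside 10.5% and 6.4% of all genes, with medians of 0.95 and 0.44. The crosslinking enzyme Loxl2 was at 8.35 and 1.40 CPM at 3 d (2.57) and stood at 1.29 at 28 d, and Lox at 5.37 and 1.52 CPM (1.82) and 1.66. Pcolce, which aids removal of the procollagen tail, was at 57.3 and 18.8 CPM at 3 d (1.61), Adamts14 stood at 1.55 and Loxl1 at 1.11, and Loxl4 had 65 UMIs.

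Of 8 fibril-associated proteoglycan genes, 3 were higher at 3 d and 2 at 28 d, with medians of 0.82 and 0.65, against the same 10.5% and 6.4% of all genes. They were Dcn, at 81.3 and 20.6 CPM at 3 d (1.98) and 1.54 at 28 d, Lum at 2.09 and 1.04, and Bgn at 1.18 at 3 d. Dcn, Lum, Ogn and Fmod are in the fibroblast marker list as well, so the lists share genes, and Dcn and Lum were the 2 of those 10 markers higher at each time. Of 9 receptor and uptake genes, with medians of 0.72 and 0.67, 1 was higher at 3 d and 2 at 28 d, against those shares. The integrin subunit gene Itga2 was the one higher at 3 d (1.72), and Itga2, on 66 UMIs, and the inhibitory immune receptor gene Lair1 (1.19) were higher at 28 d. The medians of all 4 lists thus lay above those of all genes (0.14 and 0.04), in sums that also hold more of the fibroblast markers (1.0 and 0.71).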

How the data were processed

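Raw UMI counts per gene and 16 µm bin under tissue were deposited by the authors, who made them with Space Ranger 4.0.1 (per the file headers) and the mouse probe set 2.0, with no normalization. The submitters' processing notes name mm10. All deposited bins under tissue were kept, and 0 sample columns were left unused. Side cuts followed array columns. UMIs were summed per region, expressed as CPM, and log2 ratios (0.5 UMI added to each sum) were taken with exact conditional binomial 95% intervals. Levels have exact Poisson and shares of bins Clopper-Pearson intervals. All cover counting error only, neighbouring bins not being independent. Each time had 1 section, so no p-value was computed. Where a region had 0 UMIs, folds were taken against a floor of 3 counts.

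The lesion zone was placed on tiles of 4 by 4 bins (64 µm), smoothed over 5 by 5 tiles, where the score passed the 99th percentile of opposite-side tiles, in patches of at least 25 tiles. Plexus bins had at least 1% plexus marker UMIs over 5 by 5 bins. The bins with a high summed level of Prox1, Dsp and C1ql2 were those past the 99th percentile of opposite-side bins. Fewer than 100 UMIs were found in 1.93% of bins at 3 d and 2.15% at 28 d, and in 29.6% and 32.9% of border bins.

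Members and lists were chosen with earlier results of these data known, and the flap, plexus bins, midline strip and Prox1, Dsp and C1ql2 bins were chosen after the maps were seen. Named were fibrillar and basement membrane genes with at least 200 UMIs in a section, other collagens at least 2-fold different with at least 100 UMIs or among the 3 of most UMIs in their group, and companion genes at least 2-fold different with at least 100 UMIs. Alternatives were a minimum of 100 UMIs per bin, TMM scaling (edgeR 4.0.16), UMIs per bin, shifted cuts, other minimums, borders and zone thresholds, and areas left out. The code was tested on simulated data. R 4.3.3, matplotlib 3.10.9, scipy 1.17.1, pandas 2.3.3, numpy 2.4.6 and Python 3.11.15 were used.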

Additional observations from a re-analysis of the deposited data

Results flagged for a closer look

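In 3 members the injured side stood below the opposite side in 1 section and above it in the other, with the intervals of counting error on either side of 0. The difference between the sections was not tested. Col5a1, a type V fibrillar chain, had log2 ratios of -0.50 at 3 d and 0.39 at 28 d. Col6a1, a type VI microfibril chain, had -0.44 and 0.50. Col23a1, a transmembrane collagen, had -0.52 and 1.47. Excitatory neuron markers moved in the same comparison (-1.41 and -0.24), and their part in these values was not tested.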

How the results depend on the processing

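Of 97 alternatives for 16 ratios, 95 values kept their direction and 2 turned, both with UMIs per bin at 28 d, and 2 counts had 21 alternatives. These were the basement membrane ratios of border to inside (-0.50) and of lesion zone to opposite side (-0.36). For injured against opposite side, TMM scaling gave 0.92 for fibrillar, 0.33 for basement membrane and 0.42 for other collagens at 3 d, and 0.35 and 0.38 for basement membrane and other collagens at 28 d. UMIs per bin gave 0.96, 0.38 and 0.46 for the 3 classes at 3 d and 0.62, 0.22 and 0.25 at 28 d. Moving the cut towards the injured side gave 0.46 for other collagens at 3 d, and 0.73 for fibrillar and 0.26 for other collagens at 28 d. Moving it away gave 1.0 for fibrillar and 0.41 for basement membrane collagens at 3 d, and 0.47 for other collagens at 28 d. Without the midline strip the fibrillar ratio was 1.18 at 3 d, and without plexus bins the ratio of other collagens was 0.23 and 0.36. Without the flap the 28 d ratios were 0.55 for fibrillar and 0.30 for basement membrane collagens, and 5 members were at least 2-fold higher. Over the alternatives this count ran from 13 to 19 at 3 d, where 7.72% to 13.3% of all genes were higher, and from 5 to 11 at 28 d, where 4.81% to 9.38% were. The 11, with the cut moved away from the injured side, went with 7.77% of genes.

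For border against inside, the fibrillar ratio was 3.53 and 3.57 with a border of 100 µm, 3.78 and 2.85 with inner holes as border, and 3.16 and 2.48 with UMIs per bin. The basement membrane ratio at 3 d was 0.86, 1.05 and 0.11 under these. For the lesion zone, the 95th percentile gave 2.27 for fibrillar collagens at 3 d and 1.40 and 0.48 for basement membrane collagens at 3 and 28 d. A border of 100 µm gave 1.94 and 1.02 for fibrillar and 1.46 and 0.14 for basement membrane collagens. UMIs per bin gave 1.30 and 0.53 for fibrillar collagens and 0.69 for basement membrane collagens at 3 d. For 28 d against 3 d, TMM, UMIs per bin and the flap left out gave -0.52, -0.93 and -0.81 for fibrillar and -0.35, -0.76 and -0.49 for basement membrane collagens. The cause of these shifts was not tested. No paired analysis was possible because each group has 1 section. Members with few UMIs, such as Col10a1, Col6a6 and Col17a1, have wide intervals.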

Other observations

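Members differed in the marker lists they ran with across the tissue. Over tiles of 128 µm, which share library and depth, the marker list ranked most like Col11a2 was that of astrocytes in both sections and on both sides, with Spearman's rho of 0.30 over 610 injured-side and 0.26 over 1283 opposite-side tiles at 3 d, and 0.46 over 797 and 0.35 over 842 at 28 d. Col19a1 ran closest to excitatory neuron markers on the 3 d opposite side (0.48) and the 28 d injured side (0.44), and to inhibitory neuron markers on the 28 d opposite side (0.40). Col25a1 ran closest to excitatory neuron markers on the injured side (0.16 at 3 d, 0.23 at 28 d). On the 3 d opposite side these were its lowest list (-0.09), and on the 28 d opposite side its first list was oligodendrocyte precursor markers (0.009). Col4a1 ran closest to endothelial markers on the 3 d injured side (0.50), but had weaker and different first lists elsewhere, excitatory neuron markers on the 3 d opposite side (0.18), mural cell markers on the 28 d injured side (0.26) and fibroblast markers on the 28 d opposite side (0.17). Its partner Col4a2 had a neuron list first on both sides of both sections, each with a weak rho. These were excitatory neuron markers on the 3 d injured (0.16), 3 d opposite (0.16) and 28 d opposite side (0.08), and inhibitory neuron markers on the 28 d injured side (0.18). Col1a1 ran closest to fibroblast markers on both sides of both sections (0.58 and 0.47 at 3 d, 0.48 and 0.39 at 28 d). These are descriptions across tiles of 2 sections.

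In the bins with a high summed level of Prox1, Dsp and C1ql2, Col20a1 and Col22a1 had few UMIs. By the Dsp counts given above, these bins were not alike between the sides at 3 d. The part of this in the values below was not tested, and the naming rule for members did not cover these bins. At 3 d Col20a1 had 0 UMIs on the injured and 14 on the opposite side, at least 3.08-fold lower against a floor of 3 counts over the bins, and Col22a1 had 1 and 12 UMIs (log2 ratio -2.46, interval -8.40 to -0.23). At 28 d the sides held 7 and 9 UMIs of Col20a1 and 8 and 12 of Col22a1. Col27a1 stood the other way at 3 d (361 and 222 UMIs).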
